A study of Mus musculus with 4 samples.

Results

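The genes described here are 10 textbook targets of NRF2, the transcription factor that heads the cellular response to oxidants and electrophiles. They were chosen with earlier results of these data known and were taken by gene symbol. All 10 were among the 13102 genes in the count tables and all 10 averaged at least 1 CPM (counts of a gene scaled to a fixed library size), as 12934 genes did. RNA was sequenced from primary epidermal keratinocytes of neonatal C57BL/6 mice that had been in culture for 48 h. The 4 groups were wild-type (WT) cells without cytokine, WT cells with the inflammatory cytokine interleukin-17A (IL-17A) at 100 ng/mL for 8 h, and cells of Il17rc knockout (KO) and of Il17rd KO mice with the same dose and time of IL-17A. Both deleted genes encode IL-17 receptor proteins. With 1 library in each group no difference below could be checked in replicates, and p-values are not given. The labels do not say how many mice, or of which sex, gave the cells of a library. Untreated knockout cells were not analysed here, so what the genotype changes by itself and what it changes in the answer to the cytokine cannot be told apart.

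In unstressed cells the adaptor KEAP1 binds NRF2, the product of Nfe2l2, and directs it to degradation. Oxidants and electrophiles modify KEAP1, NRF2 accumulates, and with a small MAF partner it binds antioxidant response elements (AREs) near its target genes, where the repressor BACH1 competes with it. The targets make and use glutathione, reduce thioredoxin and peroxiredoxins, detoxify quinones and aldehydes, and break down haem. In the epidermis this programme is known for protecting keratinocytes against ultraviolet light and reactive chemicals. IL-17A is known for its role in psoriasis and in defence of the skin against microbes.

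Promoter windows of RefSeq (GRCm38.p6), from 250 bases before the start site to 50 bases from it on, were found for 7 of the 10 genes in 9 windows. They were searched on both strands for the ARE core, TGACNNNGC or TGAGNNNGC, and for the AP-1 site, TGAGTCA or TGACTCA. The 2 motifs can overlap, since an ARE core can hold an AP-1 site, and TGANTCAGC was therefore searched as their joint form. Of 32851 windows of this length, 27.8% hold an ARE core, 5.20% an AP-1 site and 1.19% the joint form. The ATF4 element TGATGCAA, present in 0.895% of windows, and the joint form were added to the search after the sequences had been seen.

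The bases from 250 to 31 before the start site are printed below for the 3 genes whose windows held the joint form or the ATF4 element. They are shown because Osgin1 and Srxn1 share the joint form but not the response to IL-17A given below, and because Slc7a11 is the only 1 of the 10 genes whose highest level was in the Il17rd KO library. Capitals mark the AP-1 sites and joint forms in Srxn1 and Osgin1 and the ATF4 elements in Slc7a11. Each sequence runs 5′ to 3′ on the strand of its gene.
Srxn1 (chr2:152105274-152105493, plus strand): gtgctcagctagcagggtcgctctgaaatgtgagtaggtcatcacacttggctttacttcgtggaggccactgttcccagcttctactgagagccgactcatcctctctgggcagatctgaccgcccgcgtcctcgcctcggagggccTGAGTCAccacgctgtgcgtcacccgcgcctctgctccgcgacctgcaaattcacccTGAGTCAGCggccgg
Osgin1 (chr8:119436897-119437116, plus strand): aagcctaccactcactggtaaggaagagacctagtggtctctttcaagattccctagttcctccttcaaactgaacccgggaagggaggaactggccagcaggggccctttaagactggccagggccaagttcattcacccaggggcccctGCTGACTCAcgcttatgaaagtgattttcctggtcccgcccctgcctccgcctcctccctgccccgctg
Slc7a11 (chr3:50443644-50443863, minus strand): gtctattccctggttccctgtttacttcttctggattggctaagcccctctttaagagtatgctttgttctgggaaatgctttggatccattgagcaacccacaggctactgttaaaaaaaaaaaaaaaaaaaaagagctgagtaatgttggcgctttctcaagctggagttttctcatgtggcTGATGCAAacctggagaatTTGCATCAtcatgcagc

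In Srxn1 the joint form lay at -45 to -37 on the gene strand, with a second AP-1 site at -102 to -96 and further ARE cores at -158 to -150 and, past the start site, at 28 to 36. In Osgin1 the joint form lay at -99 to -91 on the opposite strand. Slc7a11 held 1 ARE core, at -97 to -89, and ATF4 elements at -66 to -59 on the gene strand and at -47 to -40 on the opposite strand. Gclm held 1 ARE core at -134 to -126, and Txnrd1 held 1 at -92 to -84 in 1 of its 3 windows. The letters searched were not in the windows of Akr1b8 and Nqo1. Bases outside the windows were not searched, so this does not show that these genes lack the motifs. A match is a description of the letters and does not show a bound site. Promoter windows of Gsta4, Hmox1 and Gclc were not used here.

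Total counts per library ran from 19711866 to 19904695. The targeted genes check the labels. Il17rd had 252, 265, 150 and 5 counts in untreated WT, in WT with IL-17A, in Il17rc KO and in Il17rd KO (the order used throughout), and Il17rc had 2729, 1152, 439 and 1718, so Il17rc transcript was still counted in the library labelled Il17rc KO. All 10 keratinocyte markers were measured, with summed levels of 30641 to 39766 CPM. Other cell types were also represented: 14 of 16 fibroblast markers (354 to 484 CPM summed, most of it from Vim and Sparc), 8 of 8 melanocyte markers (1640 to 2489 CPM) and 4 of 10 immune cell markers (6.58 to 52.9 CPM). The summed level of 4 Y-linked genes was 100.0, 31.9, 96.6 and 0.0974 CPM in the same order, with 3 of the 4 genes at 0 counts in Il17rd KO, so the libraries also differ in sex-linked transcripts.

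A call of higher or lower was made where scaled counts of a gene differed by at least 2-fold between the libraries compared and the exact 95% binomial interval of the ratio excluded 1. Folds that did not pass are given as values and said not to be called. The interval stands in parentheses, covers counting error only and describes the libraries compared. In bulk RNA fewer cells of a type and less RNA per cell cannot be told apart.

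WT cells with and without IL-17A were compared to ask which of these genes differed after 8 h of the cytokine. The 10 NRF2 targets did not share 1 direction. Gsta4, Osgin1, Akr1b8, Nqo1 and Txnrd1 were higher with IL-17A, by 2.36-fold to 15.7-fold. Hmox1 was 2.30-fold lower, and Gclc, Gclm, Srxn1 and Slc7a11 were within 2-fold. Thus 5 of 10 were called higher and 1 lower, where 8.97% of all genes tested were called higher and 10.7% lower. The median log2 ratio was 0.85 over the 10 genes and 0.00 over all genes. Since the 10 genes were chosen with earlier results known, these shares and medians are a description and no test of enrichment.

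**Figure D1:**
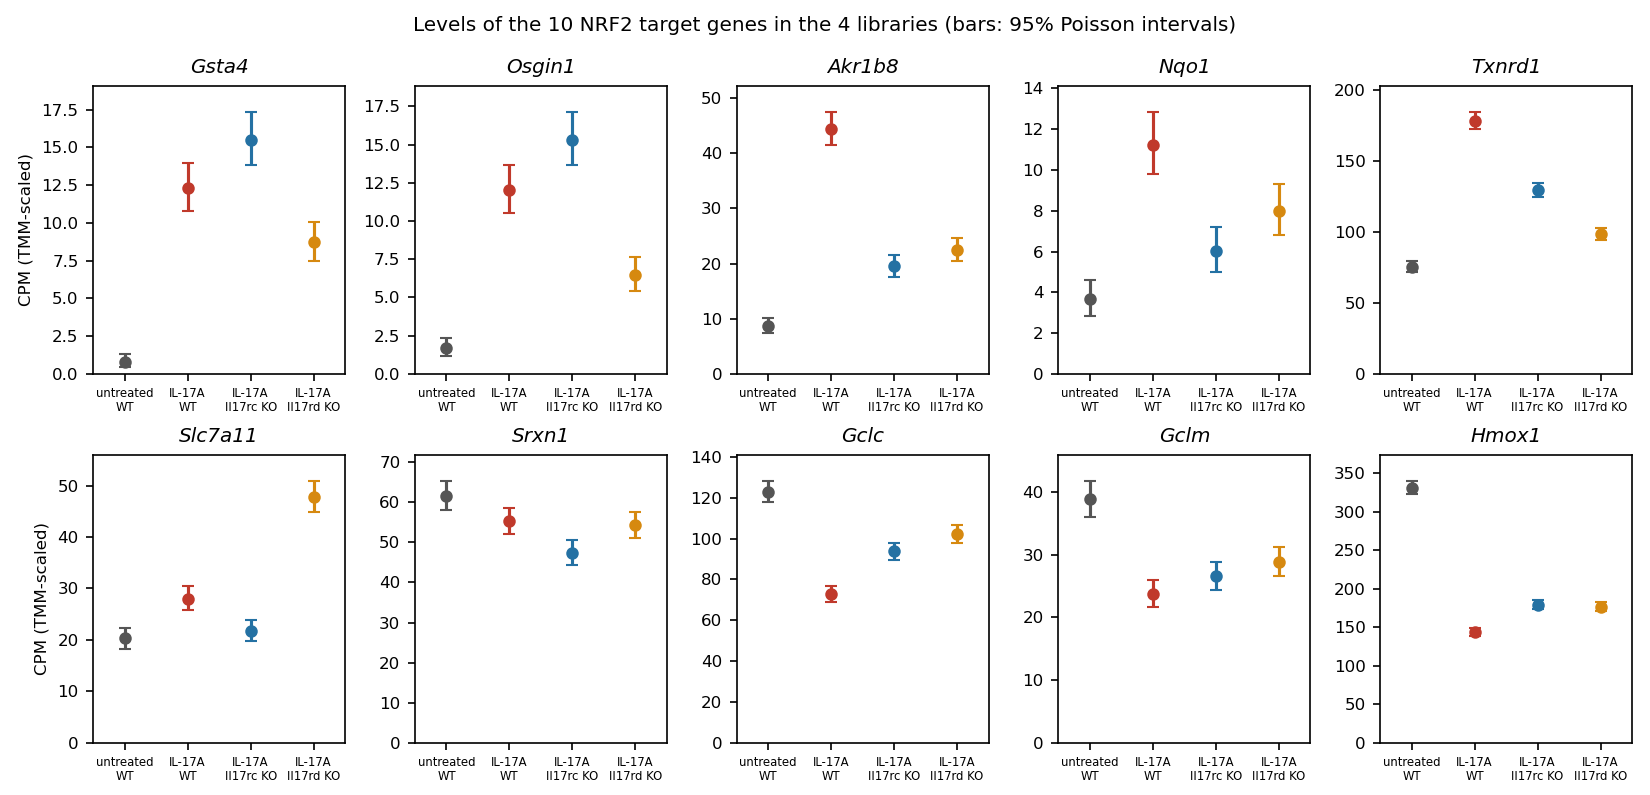
Level of each of the 10 genes (CPM, linear axes that start at 0) in the 4 libraries, 1 point per library; bars are exact 95% Poisson intervals, which cover counting error only. Gsta4, Osgin1, Akr1b8, Nqo1 and Txnrd1 are lowest in untreated WT, and Hmox1, Gclc and Gclm are highest there and lowest in IL-17A WT.

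Among the detoxifying enzymes, Gsta4 encodes a glutathione transferase that conjugates 4-hydroxynonenal, a product of lipid peroxidation. It lies on chromosome 9 (78182774 to 78209349, plus strand, GRCm38 as are all gene positions here). Its level was 0.782 CPM without cytokine, 12.3 in IL-17A WT, 15.5 in Il17rc KO and 8.72 in Il17rd KO, from 15, 241, 311 and 179 counts. All 3 IL-17A libraries stood far above the untreated library, and the Il17rc KO library was the highest. The ratio of IL-17A WT to untreated WT was 15.7 (9.35 to 28.6), the largest of the 10 genes, and rests on 15 untreated counts.

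Akr1b8 encodes an aldo-keto reductase that reduces aldehydes (chromosome 6, 34354119 to 34368463, plus strand). It had 8.76, 44.4, 19.5 and 22.4 CPM. It was highest in IL-17A WT, 5.07-fold above untreated WT (4.29 to 6.01), and both knockout libraries lay between the WT libraries. Its longest transcript has no copy that matches at 95% identity along 50% or more of a sequence; the nearest family members, Akr1b7 and Akr1b10, match it at 87.0% and 86.9%. Akr1b10 itself had 12.1, 17.4, 8.73 and 14.1 CPM, and Akr1b3, another family member, had 30.7, 61.2, 31.3 and 39.1 CPM. Neither was called with IL-17A in WT cells, although Akr1b3 stood at 1.99-fold higher (1.80 to 2.20).

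Nqo1 encodes the quinone reductase that is the usual reporter gene of NRF2 (chromosome 8, 107388225 to 107403206, minus strand). Its level was 3.65 CPM without cytokine, 11.2 in IL-17A WT, 6.03 in Il17rc KO and 7.98 in Il17rd KO. The order was that of Akr1b8 at its ends, with the WT libraries as lowest and highest and the knockout libraries between them. IL-17A WT was 3.08-fold higher (2.34 to 4.09) than untreated WT.

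Osgin1 encodes an oxidative stress-induced growth inhibitor (chromosome 8, 119434124 to 119446256, plus strand), and its promoter stretch with the joint form is printed above. That stretch, 119436897 to 119437116, lies inside this span, so its start site is internal to the gene as positioned here. It had 1.67, 12.01, 15.3 and 6.48 CPM, from 32, 235, 307 and 133 counts in the same order. As with Gsta4, the Il17rc KO library was the highest and the untreated library the lowest. The ratio of IL-17A WT to untreated WT was 7.19 (4.96 to 10.8).

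Of the genes for thiol reduction, Txnrd1 encodes the cytosolic enzyme that reduces thioredoxin with NADPH (chromosome 10, 82833951 to 82897712, plus strand). It had 75.5 CPM without cytokine, 178 in IL-17A WT, 129 in Il17rc KO and 98.4 in Il17rd KO. Each step of this order exceeded counting error, and IL-17A WT was 2.36-fold higher (2.22 to 2.51) than untreated WT. Srxn1 encodes sulfiredoxin, which restores over-oxidised peroxiredoxins (chromosome 2, 152105516 to 152111376, plus strand). It had 61.6, 55.2, 47.4 and 54.2 CPM and was the most even of the 10 genes, with a highest level 1.30 times its lowest. The ratio of IL-17A WT to untreated WT was 1.12-fold lower (1.03 to 1.21), not called. Its promoter stretch, like that of Osgin1, holds the joint form.

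Hmox1 encodes haem oxygenase 1, which breaks haem down to biliverdin, iron and carbon monoxide (chromosome 8, 75093621 to 75100589, plus strand). It had 331 CPM without cytokine, 144 in IL-17A WT, 179 in Il17rc KO and 177 in Il17rd KO. Untreated WT was the highest, IL-17A WT the lowest, and the knockout libraries lay between them and did not differ beyond counting error. IL-17A WT was 2.30-fold lower (2.20 to 2.40) than untreated WT, so the haem-degrading member was called in the direction opposite to that of Nqo1.

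Glutathione synthesis is represented by Gclc and Gclm, the catalytic and modifier subunits of glutamate-cysteine ligase, the rate-limiting enzyme of the pathway. Gclc (chromosome 9, 77754535 to 77794485, plus strand) had 123, 72.8, 93.7 and 102 CPM, and Gclm (chromosome 3, 122245557 to 122270732, plus strand) had 38.8, 23.8, 26.5 and 28.8 CPM. Both subunits were highest in untreated WT and lowest in IL-17A WT. Gclc was 1.69-fold lower (1.58 to 1.81) with IL-17A in WT cells and Gclm 1.63-fold lower (1.45 to 1.84), and neither was called. In Gclm the neighbouring levels of Il17rd KO and Il17rc KO, and of Il17rc KO and IL-17A WT, did not differ beyond counting error. Exons of Gclm share 296 bases with Gm17494 on the opposite strand and 244 bases with Gm6061 on the same strand, 4.71% and 3.88% of its exon bases. Whether the counting used strand is not stated, so reads of these stretches may be shared.

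Slc7a11 encodes the cystine importer xCT, which supplies the cysteine for glutathione (chromosome 3, 49892526 to 50443614, minus strand). It had 20.3 CPM without cytokine, 28.1 in IL-17A WT, 21.7 in Il17rc KO and 47.8 in Il17rd KO. The Il17rd KO library stood apart as the highest, and Il17rc KO did not differ from untreated WT beyond counting error. In WT cells the ratio with IL-17A was 1.38-fold higher (1.21 to 1.58) and was not called.

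The libraries also differed in how the genes stood to each other. Levels of different genes are compared per transcript length, in the authors' FPKM (fragments scaled by gene length and library size). Hmox1 had the highest FPKM of the 10 genes in every library, at 189, 82.3, 102 and 101. In untreated WT it was followed by Gclc at 32.6, Srxn1 at 21.8 and Txnrd1 at 10.6 FPKM, and Gsta4 at 0.617 was last. With IL-17A in WT cells Akr1b8 at 29.6 and Txnrd1 at 25.1 FPKM ranked next after Hmox1, while Slc7a11 at 2.01 was last. The FPKM of Hmox1 was 80.5 times that of Nqo1 in untreated WT, 11.4 times in IL-17A WT, 26.4 times in Il17rc KO and 19.6 times in Il17rd KO. By contrast the ratio of Gclc to Gclm FPKM stayed between 5.12 and 5.93. Summed over the 10 genes, FPKM was 271 in untreated WT and 198 to 203 in the IL-17A libraries, a sum in which Hmox1 weighs most.

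The knockout libraries were then compared with IL-17A WT. Of the 10 genes, only Akr1b8 was called in either comparison: it was 2.28-fold lower (2.02 to 2.57) in Il17rc KO. In Il17rd KO the same gene was 1.98-fold lower (1.77 to 2.22), just short of the 2-fold limit, so 0 of 10 genes were called there. Over all genes tested, 6.22% were called higher and 4.84% lower in Il17rc KO, and 6.27% and 3.73% in Il17rd KO. The median log2 ratio of the 10 genes was -0.03 in Il17rc KO, where that of all genes was 0.04, and -0.26 in Il17rd KO, where that of all genes was 0.01.

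Genes within 2-fold in Il17rc KO included Nqo1, 1.86-fold lower (1.49 to 2.35), and Txnrd1, 1.38-fold lower (1.31 to 1.45). Gsta4 and Osgin1, the members with the largest ratios with IL-17A in WT cells, were 1.26-fold (1.06 to 1.5) and 1.27-fold (1.07 to 1.52) higher in Il17rc KO than in IL-17A WT. Of the genes called higher with IL-17A in WT cells, Gsta4 and Osgin1 thus stood above IL-17A WT in Il17rc KO. Akr1b8, Nqo1 and Txnrd1 stood below it, and only Akr1b8 was called. In Il17rd KO, Osgin1 was 1.85-fold lower (1.49 to 2.31), Txnrd1 1.81-fold lower (1.72 to 1.92), and Gsta4 and Nqo1 each 1.41-fold lower. Slc7a11 was 1.70-fold higher (1.53 to 1.89) there, the largest ratio above 1 among the 10 genes, and Gclc was 1.41-fold higher (1.31 to 1.5). None of these ratios in Il17rd KO passed the 2-fold limit.

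**Figure D2:**
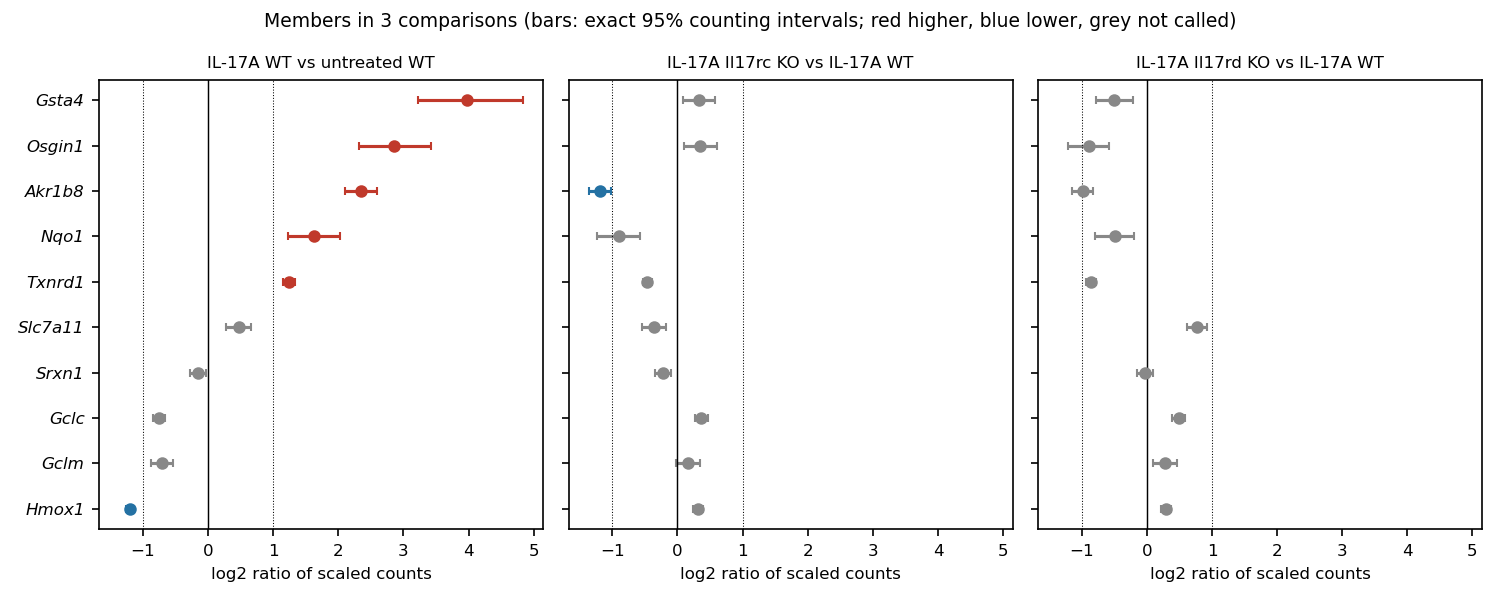
Log2 ratio of scaled counts, without a prior count, for the 10 genes (rows) in 3 comparisons (panels); bars are exact 95% counting intervals, dotted lines mark 2-fold, red and blue points are called higher and lower, grey points are not called. In the left panel 5 genes lie right of the 2-fold line and Hmox1 left of the other; in the knockout panels only Akr1b8 in Il17rc KO is called. The IL-17A WT library enters all 3 panels.

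The knockouts were next compared with each other. Osgin1 was 2.36-fold higher (1.92 to 2.92) and Slc7a11 2.20-fold lower (1.96 to 2.46) in Il17rc KO than in Il17rd KO, and the other 8 genes were not called. Over all genes 1.49% were called higher and 2.75% lower in this comparison, and the median log2 ratio was 0.02, against -0.12 over the 10 genes. Gsta4 stood at 1.78-fold higher (1.48 to 2.15) in Il17rc KO, and the ratio of Hmox1 was 1.02 (0.970 to 1.06). The pair called here comprises a growth inhibitor and the cystine importer. The promoter windows of both hold 1 ARE core, and a part of the promoter motifs in these levels was not tested.

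Against untreated WT, 3 of 10 genes were called higher in Il17rc KO and 5 in Il17rd KO, and none lower in either. The shares over all genes were 7.27% higher and 7.00% lower in Il17rc KO, and 5.36% higher and 3.35% lower in Il17rd KO. Scaling by library totals alone changed the latter split over all genes from 693 higher and 433 lower to 839 and 330. Gsta4 was 19.8-fold (11.8 to 35.8) and 11.1-fold (6.57 to 20.3) higher in Il17rc KO and Il17rd KO. Osgin1 was 9.17-fold (6.36 to 13.6) and 3.88-fold (2.62 to 5.90) higher, and Akr1b8 2.22-fold (1.85 to 2.68) and 2.56-fold (2.14 to 3.07) higher. These 3 genes were thus called higher than untreated WT in all 3 IL-17A libraries. In Il17rd KO alone among the knockout libraries, Nqo1 (2.19-fold, 1.64 to 2.94) and Slc7a11 (2.35-fold, 2.09 to 2.65) were also called higher; Nqo1 stood at 1.65-fold (1.22 to 2.25) in Il17rc KO. Hmox1 was 1.85-fold lower (1.77 to 1.92) in Il17rc KO and 1.88-fold lower (1.80 to 1.95) in Il17rd KO, not called. The median log2 ratio of the 10 genes was 0.40 in Il17rc KO and 0.74 in Il17rd KO, with a median of 0.00 over all genes in both. The comparisons share the untreated library.

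The likeness of the patterns was described by the Euclidean distance of log2 CPM centred over the 4 libraries. Gclc and Gclm were the closest pair, at a distance of 0.187, and Gclm was also the nearest member to Hmox1 and to Srxn1, at 0.397 each. Akr1b8 and Nqo1 were nearest to each other, at 0.537, and Txnrd1 was nearest to Nqo1, at 0.634. Gsta4 and Osgin1 were nearest to each other at 1.06, and Slc7a11 lay 1.01 from its nearest member, Nqo1. Among all genes tested the 5 nearest to Nqo1 were Wnk3, Oaf, Zik1, Lipt2 and Fkbp10, at 0.107 to 0.205. Oaf, for example, had 6.36, 20.6, 10.2 and 12.2 CPM, and Fkbp10, a prolyl isomerase of the endoplasmic reticulum, had 3.91, 13.1, 6.23 and 7.64 CPM. These distances rest on 4 libraries and are a description.

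The regulators of the pathway were mostly not called, and neither were most genes tested. In IL-17A WT against untreated WT 11 of 12 regulators and 10390 of 12934 genes tested were not called. Against IL-17A WT these numbers were 12 and 11504 in Il17rc KO, and 11 and 11640 in Il17rd KO. Nfe2l2, which encodes NRF2, had 160.0, 186, 175 and 180.4 CPM, and the ratio of IL-17A WT to untreated WT was 1.16-fold higher (1.11 to 1.22). Keap1 had 58.6, 48.4, 52.1 and 50.4 CPM, and Bach1 had 119, 89.6, 109 and 89.5 CPM. None of these 3 was called in any comparison. NRF2 is controlled mainly through the stability of the protein, which these data do not measure. Of 12 genes for NRF2 and its partners, 1 was called with IL-17A in WT cells: Nfe2l1, which encodes the related factor NRF1, had 1014, 423, 657 and 799 CPM and was 2.40-fold lower (2.33 to 2.46). Maff, a small MAF partner, was 2.08-fold lower (1.78 to 2.43) in Il17rd KO than in IL-17A WT, the only 1 of the 12 called in a knockout against IL-17A WT.

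**Figure D3:**
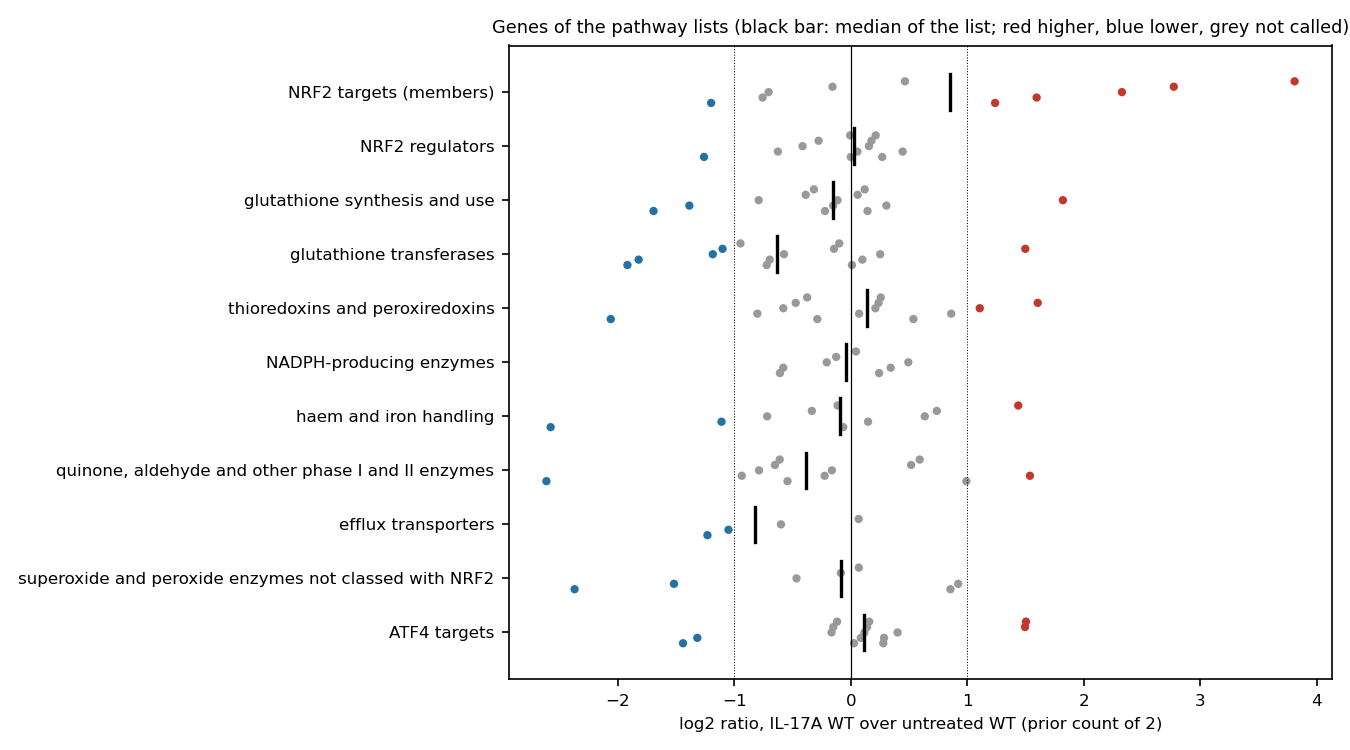
Log2 ratio of IL-17A WT to untreated WT (prior count of 2) for the 10 targets and for 10 lists of related genes, 1 point per gene; black bars are list medians and dotted lines mark 2-fold. The median of the 10 targets is 0.85, those of the other lists run from -0.82 to 0.14, and most genes of those lists are grey, not called.

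Beyond the 10 targets, 8 lists of regulators and related antioxidant, detoxification, iron and transport genes hold 105 genes, of which 88 were measured and 87 tested. With IL-17A in WT cells 6 were called higher and 13 lower, and their log2 ratios had a median of -0.14, beside 8.97% and 10.7% of all genes and a median of 0.00. Among 13 genes of glutathione synthesis and use, 1 was higher and 2 lower. Gsr, which encodes glutathione reductase, had 21.7, 76.9, 37.1 and 30.2 CPM and was 3.54-fold higher (3.18 to 3.96) in IL-17A WT. It was lowest in untreated WT and highest in IL-17A WT, as Akr1b8, Nqo1 and Txnrd1 were. Glrx, a glutaredoxin, and Gpx3, a secreted glutathione peroxidase, were 2.62-fold (2.43 to 2.81) and 3.31-fold (2.48 to 4.46) lower.

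Glutathione transferases other than Gsta4 were mostly called lower or not at all: of 14 tested, 1 was higher and 4 lower with IL-17A in WT cells, with a median of -0.63. Mgst1 and Mgst2, membrane-bound members of the family, were 3.56-fold (3.04 to 4.18) and 3.83-fold (3.08 to 4.80) lower, and Mgst3 was 2.85-fold higher (2.35 to 3.47). Gsta4 was thus called in the direction of 1 of these 14 genes. Among 14 thioredoxin and peroxiredoxin genes, Prdx4 and Prdx3, peroxidases of the endoplasmic reticulum and of mitochondria, were 3.07-fold (2.50 to 3.80) and 2.16-fold (1.99 to 2.34) higher. Txnip, the inhibitor that binds thioredoxin, had 96.9, 23.1, 66.5 and 116 CPM and was 4.18-fold lower (3.77 to 4.65), opposite to Txnrd1. None of 8 NADPH-producing enzymes was called.

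Of 10 genes of haem and iron handling, which lie around Hmox1 in function, 1 was higher and 2 lower with IL-17A in WT cells. Slc40a1, the iron exporter ferroportin, had 56.3, 9.35, 29.9 and 16.8 CPM and was 6.02-fold lower (5.14 to 7.08). Tfrc, the transferrin receptor that takes iron up, had 78.6, 213, 202 and 171 CPM and was 2.71-fold higher (2.55 to 2.88). The haem oxygenase and the iron exporter were therefore both lower and the iron importer higher. Of the 10 listed genes 7 were not called, and the median log2 ratio of the list was -0.09. Abcb6, a porphyrin transporter, was 2.31-fold lower (1.23 to 4.57), from 34 to 15 counts. Of 12 quinone, aldehyde and conjugating enzymes Nqo2, a quinone reductase related to Nqo1, was 2.95-fold higher (2.28 to 3.86), and Ugt1a7c, a glucuronosyltransferase, was 6.85-fold lower (3.89 to 13.0), from 94 to 14 counts. Of 4 efflux transporters Abcc4 and Abcc5 were 2.08-fold (1.76 to 2.46) and 2.35-fold (2.17 to 2.55) lower.

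**Figure D4:**
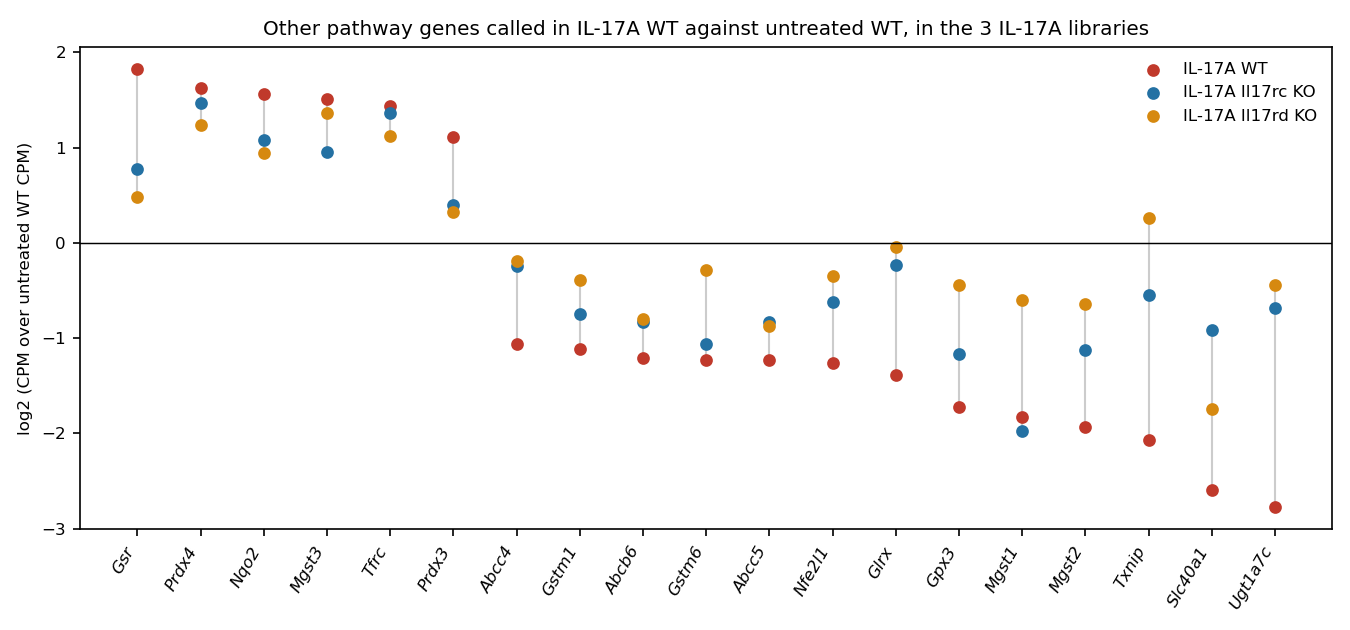
Log2 of CPM over untreated WT for the 19 related genes called in IL-17A WT against untreated WT, with 1 point for each of the 3 IL-17A libraries; lines join the points of a gene and 0 is the untreated level. The 6 genes called higher stand at the left and the 13 called lower at the right. Apart from Mgst1 in Il17rc KO, the knockout points lie nearer to 0 than the IL-17A WT point, by which the genes were chosen.

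In Il17rc KO against IL-17A WT 7 of the 87 genes were higher and 4 lower, and in Il17rd KO 7 were higher and 2 lower. Over all genes 6.22% were higher and 4.84% lower in Il17rc KO, and 6.27% and 3.73% in Il17rd KO. Txnip was 2.87-fold (2.58 to 3.20) and 5.02-fold (4.54 to 5.56) higher in the Il17rc KO and Il17rd KO libraries, and Glrx 2.23-fold (2.07 to 2.40) and 2.54-fold (2.36 to 2.73) higher. Gsr was 2.07-fold (1.90 to 2.27) and 2.55-fold (2.32 to 2.80) lower, the direction of Akr1b8. Slc40a1 was 3.20-fold higher (2.71 to 3.80) in Il17rc KO, where Ftl1, the ferritin light chain, was 2.04-fold lower (1.95 to 2.14). Mgst1 was 2.35-fold higher (1.99 to 2.78) in Il17rd KO and 1.11-fold lower (0.903 to 1.36) in Il17rc KO. All these comparisons share the IL-17A WT library.

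Slc7a11 is known to be a target of ATF4, the factor of the amino acid stress response, as well as of NRF2, so 15 ATF4 targets were listed beside it. With IL-17A in WT cells 2 were called higher and 2 lower, beside 8.97% and 10.7% of all genes. In Il17rc KO against IL-17A WT 3 were higher and none lower, namely Vldlr at 3.22-fold (2.74 to 3.78), Atf3 at 2.88-fold (2.47 to 3.36) and Trib3 at 2.02-fold (1.81 to 2.26), and the list median was 0.60. In Il17rd KO only Vldlr was called, at 2.99-fold higher (2.55 to 3.52), and the list median was 0.37. Over all genes the medians were 0.04 and 0.01 and the shares called those given above for these comparisons, 6.22% higher and 4.84% lower in Il17rc KO and 6.27% and 3.73% in Il17rd KO. Against untreated WT the list median was 0.49 in Il17rc KO and 0.50 in Il17rd KO. There 6 of the 15 were called higher in Il17rc KO and 2 in Il17rd KO, and 0 lower in either. Over all genes 7.27% were higher and 7.00% lower in Il17rc KO, and 5.36% and 3.35% in Il17rd KO. Atf4 itself had 288, 265, 403 and 321 CPM and was not called in these comparisons. Of 7 superoxide and peroxide enzymes outside the NRF2 programme, 2 were lower with IL-17A in WT cells, where 10.7% of all genes were. Sod3, the extracellular superoxide dismutase, was 5.94-fold lower (3.11 to 12.5), from 64 to 11 counts. Xdh, xanthine dehydrogenase, was 2.87-fold lower (2.72 to 3.02).

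Markers of cell state and of other cell types moved in the same comparisons. Krt1, a keratin of differentiating keratinocytes, had 2537, 38.6, 618 and 1097 CPM, so it followed the order of Gclc: highest in untreated WT, lowest in IL-17A WT, with Il17rd KO above Il17rc KO. Krt10 had 605, 11.2, 111 and 177 CPM. Of the 10 keratinocyte markers 3 were called lower with IL-17A in WT cells and 0 higher, beside 10.7% and 8.97% of all genes. The list did not share 1 direction. Itga6 had 443 CPM without cytokine and 830 in IL-17A WT, and Itgb4 had 1280 and 2363, neither called. With IL-17A in WT cells 9 of 14 fibroblast markers were called lower and none higher. The summed level of the 14 was 484, 476, 354 and 463 CPM and their median 12.2, 1.66, 6.38 and 8.81 CPM. Vim, at 180, 181, 126 and 150 CPM, and Sparc, at 182, 259, 159 and 219 CPM, weigh most in that sum. The 8 melanocyte markers summed to 2489, 1640, 2088 and 2260 CPM, and the 4 immune cell markers measured to 52.9, 24.5, 6.58 and 23.0 CPM. The 2 endothelial markers measured summed to 10.4, 17.6, 7.88 and 10.5 CPM. No fibroblast, melanocyte, immune or endothelial marker measured was at 0 in any library. The part of these cell types, of differentiation and of the sex-linked difference in the levels of the NRF2 targets was not tested.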

How the data were processed

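Per the submitters' processing notes, reads were handled with Trim Galore 0.4.4, HISAT2, featureCounts of Subread and edgeR on build mm10; settings, annotation and strand are not stated there. RNA was extracted with Trizol, per the labels' protocols. The deposited counts are raw whole numbers. The FPKM values deposited by the authors imply library sizes equal to the TMM-scaled sizes found here and served to compare levels between genes.

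Counts were scaled with TMM factors (edgeR 4.0.16, R 4.3.3) of 0.963 for untreated WT and, with IL-17A, 0.984 for WT, 1.01 for Il17rc KO and 1.04 for Il17rd KO. Log2 ratios use a prior count of 2. Intervals are exact 95% conditional binomial (Clopper-Pearson) for ratios and exact Poisson for levels; without molecular identifiers reads are not independent, so they cover counting error only. The call rule was tested on simulated data.

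The 10 genes and all lists were chosen with earlier results of these data known. The naming rule takes the 10 genes, Nfe2l2, Keap1, Bach1, for each list and each of the first 3 comparisons at most 3 called genes with the furthest log2 ratio, the 5 genes nearest to Nqo1, Il17rc and Il17rd. Not all are named in the text. Akr1b3, Akr1b7, Akr1b10, Atf4, Gm17494, Gm6061 and the values of Gsr and Mgst1 in Il17rc KO were picked after their values were seen. Itga6, Itgb4, Vim and Sparc also lie outside the naming rule and are named for their values. Positions are from GENCODE M21, and copies were sought with BLAST+ 2.17.0. Alternatives were DESeq2 1.42.0 size factors, upper-quartile factors, library totals, no filter, limits of 1.5-fold and 3-fold, a prior count of 0.5 and log2(FPKM + 1).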

Additional observations from a re-analysis of the deposited data

Results flagged for a closer look

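For 3 of the 10 genes the knockout libraries lay on opposite sides of IL-17A WT. How many of all genes tested did so was not counted, so this number is a description and has no background share beside it. The log2 ratio of Gsta4 was 0.33 in Il17rc KO and -0.49 in Il17rd KO, that of Osgin1 was 0.35 and -0.88, and that of Slc7a11 was -0.37 and 0.77. Each rests on 1 library per knockout and on the same IL-17A WT library, and the difference between the knockouts was not tested over replicates. Compared directly, Il17rc KO stood at 1.78-fold (1.48 to 2.15) of Il17rd KO in Gsta4 and was called 2.36-fold higher (1.92 to 2.92) in Osgin1 and 2.20-fold lower (1.96 to 2.46) in Slc7a11; these intervals cover counting error only.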

How the results depend on the processing

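Each group has 1 library, so no library could be left out and a call describes counting error only. No paired analysis was possible because each group has 1 library. The 12 counts of NRF2 targets called were the same with DESeq2 size factors and with library totals alone. Leaving out the filter on low counts could not change them, since all of these genes pass it. With upper-quartile factors Akr1b8 passed the limit in Il17rd KO against IL-17A WT, which gave 1 lower, where 3.87% of all genes were called lower. A limit of 1.5-fold gave 3 lower in IL-17A WT against untreated WT, 2 lower in Il17rc KO and 1 higher and 3 lower in Il17rd KO against IL-17A WT, 2 higher in Il17rc KO against Il17rd KO, 5 higher and 1 lower in Il17rc KO against untreated WT, and 1 lower in Il17rd KO against untreated WT. Over all genes that limit called 17.9% higher and 18.9% lower in IL-17A WT against untreated WT. The shares were 12.3% and 9.78% in Il17rc KO and 12.1% and 8.31% in Il17rd KO against IL-17A WT. They were 5.27% and 6.94% in Il17rc KO against Il17rd KO. Against untreated WT they were 15.6% and 16.1% in Il17rc KO and 11.5% and 10.1% in Il17rd KO. A limit of 3-fold gave 4 higher and 0 lower in IL-17A WT against untreated WT, 2 higher in Il17rc KO against untreated WT, 0 lower in Il17rc KO against IL-17A WT, 0 higher and 0 lower in Il17rc KO against Il17rd KO, and 2 higher in Il17rd KO against untreated WT. The shares of all genes at 3-fold were, in the same order, 3.49% higher and 5.28% lower, 3.45% higher, 2.06% lower, 0.549% higher and 0.966% lower, and 2.17% higher. The deposited FPKM on the log2(FPKM + 1) scale gave 0 higher and 0 lower in Il17rc KO against Il17rd KO and 3 higher in Il17rd KO against untreated WT. That scale understates the ratios of low genes. On it 0.619% of all genes were higher and 0.951% lower in the first of these comparisons, and 2.47% higher in the second. Over all genes, IL-17A in WT cells gave 1160 higher and 1384 lower calls; these counts were 2312 and 2441 at 1.5-fold, 451 and 683 at 3-fold, and 609 and 803 on the FPKM scale. Upper-quartile factors turned the balance over all genes in Il17rc KO against IL-17A WT from 804 higher and 626 lower to 699 and 715.

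Of 60 log2 ratios of the 10 genes, 58 kept 1 sign under every setting. The exceptions were Hmox1 in Il17rc KO against Il17rd KO (-0.03 to 0.02) and Srxn1 in Il17rd KO against IL-17A WT (-0.04 to 0.06). The median of the 10 genes in Il17rc KO against IL-17A WT turned from -0.03 to 0.01 with library totals alone. That scaling moved the median of all genes to 0.11 in Il17rd KO against untreated WT, where it was 0.00 with TMM factors. Gsta4 with 15 counts and Osgin1 with 32 counts in untreated WT set the precision of the largest ratios.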
